A study of Mus musculus with 8 samples.

Results

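The 85 genes described here encode, apart from a few assembly factors, the nuclear-encoded subunits of mitochondrial oxidative phosphorylation, measured in WT and Padi4 KO neutrophils from mouse bone marrow. They were set by symbol and by a minimum of counts. Of the 24421 rows of the count table, 92 had a symbol starting with Nduf, Uqcr, Atp5, Cox4, Cox5, Cox6, Cox7 or Cox8, or were Sdha, Sdhb, Sdhc or Sdhd, and were not marked as pseudogenes. Of these, 7 had no count in any library (Cox4i2, Cox6a2, Cox7b2, Cox8b, Cox8c, Ndufa4l2 and Ndufs5). Of the windows of 50 bases in the Ndufs5 transcript, 31.1% also occur in BC002163, so its lack of counts may depend on read assignment. The other 85 were counted, with 1 read or more, in 2 or more of the 8 libraries. By role they comprised 36 genes of complex I, 4 of complex II, 8 of complex III, 12 of complex IV, 15 of ATP synthase, 7 complex I assembly factors (Ndufaf) and 3 genes that encode no subunit (Atp5s, Atp5sl and Cox7a2l). Ndufa4 is counted here with complex I, where its symbol puts it, although it is now placed with complex IV. On average 72 of the 85 had at least 10 counts per library and 13 had fewer.

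Neutrophils were purified magnetically from the bone marrow of female 8-week-old C57BL/6 mice, either WT or Padi4 KO; in the KO strain exon 1 of Padi4, which encodes the arginine-modifying enzyme PAD4, is deleted. Cells of each genotype were left unstimulated or received 1 µg/ml of R848, an agonist of the endosomal RNA sensor TLR7, for 6 h, and 2 libraries were made for each of the 4 groups. The labels give 0 h for the unstimulated libraries and the methods give 6 h, so that a response to R848 may include an effect of culture, and these cannot be told apart. The labels do not say whether duplicates came from separate mice, and the p-values therefore measure only the spread between these libraries, which may be technical.

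Oxidative phosphorylation passes electrons from NADH (complex I) and succinate (complex II) through ubiquinone to complex III, cytochrome c and complex IV, and the proton gradient built on the way drives ATP synthase. Subunits of all these complexes except complex II are encoded partly in the nucleus and partly in mitochondrial DNA, and the count table holds no gene of the mitochondrial genome. Neutrophils are known for few mitochondria and for taking most of their ATP from glycolysis, and mitochondrial content falls as they mature in the marrow.

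Library depth was between 562446 and 1177972 counts on genes, and 3 counts, the smallest level taken as measurable, corresponded to 2.55 to 5.33 CPM (counts scaled to a common library total). These floors cover counting error only. Padi4 had 590 and 527 counts in unstimulated WT, 166 and 234 in WT after R848, and between 21 and 54 in the 4 KO libraries. The WT libraries after R848 differed from each other most, with a chi-square over genes 1.67 times its degrees of freedom against 1.05 to 1.16 in the other pairs. Markers of other cells moved with genotype. The 13 erythroid markers tested summed to 31.4 to 161 CPM in WT and to 1472 to 1673 CPM in KO libraries, although 6 hemoglobin genes were at 0 in all 8. Markers of immature neutrophils summed to 70050 to 74710 CPM in WT and 53420 to 57030 CPM in KO libraries, and those of mature neutrophils to 94710 to 109800 CPM and 79490 to 85050 CPM. In bulk RNA, fewer cells of a type and less RNA per cell cannot be told apart.

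Promoter sequences were compared because many genes of this pathway are known targets of the transcription factor NRF1, of ETS factors such as GABP, and of YY1. RefSeq promoters of GRCm38.p6, 250 bases before to 50 bases after a gene's start, were found for 70 of the 85 genes; for a gene with more than 1 promoter, a match in any was counted. The NRF1 motif, searched on both strands as GCGCA, any 1 base and then GCGC, stood in 18 of these (25.7%), against 5.19% of all 27025 genes with a promoter and 11.6% of those tested. The ETS letters CCGGAAGT stood in 7.14% of the 70, against 9.28% among genes tested, and the YY1 letters AAGATGGCG in 10.0%, against 3.68%. The promoters below belong to genes that were lower in WT after R848 and that hold such letters outside annotated exons; they were chosen with these values known. Each is the stretch of the 250 upstream bases that lies in no annotated exon, 5′ to 3′ on the minus strand, which carries all 4 genes, with the motif in capitals. Cox6a1 (chr5:115348982-115349129) holds the NRF1 letters from bases -162 and -117, counted from the gene's start, Atp5h (chr11:115419963-115420127) from base -141, and Ndufb4 (chr16:37654454-37654618) from base -191. Uqcr11 (chr10:80406831-80407071) holds the ETS letters from base -66.
Cox6a1: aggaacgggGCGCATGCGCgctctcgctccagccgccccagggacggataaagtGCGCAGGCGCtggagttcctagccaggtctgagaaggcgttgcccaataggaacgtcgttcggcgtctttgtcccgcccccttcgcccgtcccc
Atp5h: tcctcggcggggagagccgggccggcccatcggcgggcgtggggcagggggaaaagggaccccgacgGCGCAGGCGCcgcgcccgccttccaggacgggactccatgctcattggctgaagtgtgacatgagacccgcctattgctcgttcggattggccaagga
Ndufb4: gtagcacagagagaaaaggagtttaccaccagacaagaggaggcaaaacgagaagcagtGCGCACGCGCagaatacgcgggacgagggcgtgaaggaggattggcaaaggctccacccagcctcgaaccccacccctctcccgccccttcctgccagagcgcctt
Uqcr11: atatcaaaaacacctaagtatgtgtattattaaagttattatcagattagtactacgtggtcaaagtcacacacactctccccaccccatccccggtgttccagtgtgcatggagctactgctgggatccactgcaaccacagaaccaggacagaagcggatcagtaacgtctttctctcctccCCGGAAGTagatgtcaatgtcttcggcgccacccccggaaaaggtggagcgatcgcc
A match of letters is a description of the sequence and does not show binding.

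Levels per kilobase of transcript were compared between genes as CPM per kb, with CPM scaled by TMM factors here and from here on. Lengths are those of the longest principal transcript in GENCODE. Atp5b, the catalytic beta subunit of ATP synthase, stood highest of all members at 253 CPM per kb. In complex IV, Cox4i1, the first nuclear-encoded subunit to assemble, led at 163 CPM per kb, followed by Cox8a at 133 and Cox6a1 at 130. Within the other complexes, Uqcrh, a hinge protein of complex III, had 122 CPM per kb, Ndufb7 of complex I 102, and Sdhb, the iron-sulfur subunit of complex II, 64.8. The lowest levels among members with at least 10 counts were those of Ndufab1, the mitochondrial acyl carrier protein, at 4.17 CPM per kb and Atp5g1 at 5.27, both with long annotated transcripts. Complex III was lowest in Uqcrq, at 30.7 CPM per kb, and complex II in Sdhc, at 13.4. In mean CPM, which does not allow for length, the leading genes were Ndufb9 (67.2) in complex I, Uqcrc1 (107) and Uqcrc2 (93.5), the core proteins, in complex III, Cox4i1 (124) and Cox5b (86.6) in complex IV, and Ndufaf7 (23.1) among the assembly factors.

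**Figure D1:**
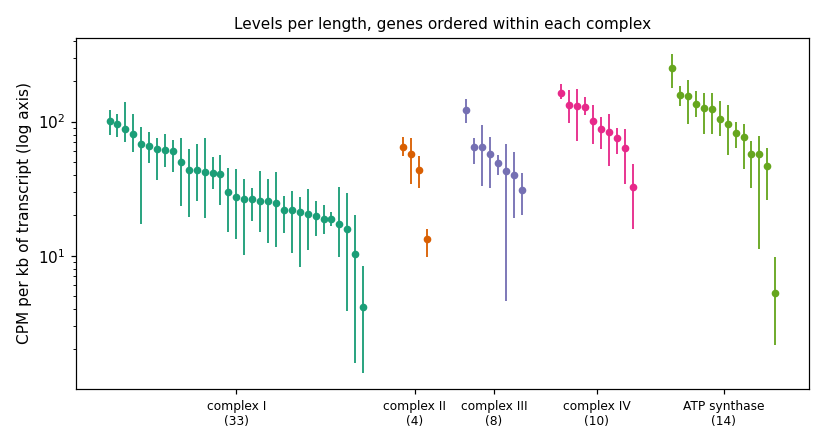
Mean CPM per kb of transcript over the 8 libraries (points, log axis) with the lowest and highest library (lines) for the 69 subunit genes with at least 10 counts and a known length, ordered within each complex. Atp5b stood highest at 253 CPM per kb, and complex I genes ranged from 4.17 to 102.

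For subunits with tissue isoforms, the neutrophil libraries held the ubiquitous forms. Cox4i2, Cox6a2, Cox8b and Cox8c had no counts, and Cox7a1, the form of heart and skeletal muscle, had 0 or 1 count in every library, while Cox7a2 had 76.0 CPM per kb. Cox6b2, known as the testis form of Cox6b, was lower per length than Cox6b1 (9.77 against 128 CPM per kb). Its counts were 2 and 1 in unstimulated WT, 1 and 0 in WT after R848, 10 and 12 in unstimulated KO, and 15 and 6 in KO after R848. Both genotype comparisons called it higher in KO, with adjusted p = 0.067 unstimulated and adjusted p = 0.023 after R848 in edgeR's quasi-likelihood test. The first call was lost without either unstimulated WT replicate or replicate 1 of unstimulated KO, and the second without replicate 2 of WT or replicate 1 of KO after R848. On the 21 and 1 counts of the R848 groups the ratio of KO to WT was 10.0, with an exact 95% counting interval of 1.61 to 414. Subunit c of ATP synthase comes from several genes with the same mature protein, and Atp5g3 (105 CPM per kb) and Atp5g2 (56.9) stood above Atp5g1 (5.27). Much of this gap comes from the annotated length of Atp5g1, 4715 bases against 723 for Atp5g3 and 731 for Atp5g2. In mean CPM, Atp5g3 had 75.6, Atp5g2 41.6 and Atp5g1 24.8. Of the windows of 50 bases in the Atp5g2 transcript, 87.4% also occur in other annotated genes such as Gm10175, so its counts depend on how such reads were assigned.

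Summed over all members, CPM was 4601 and 4251 in unstimulated WT, 3640 and 3670 in WT after R848, 5045 and 5039 in unstimulated KO, and 4999 and 4972 in KO after R848. The WT libraries after R848 were lowest, and the 4 KO libraries were above all 4 WT libraries. As a share of all gene counts, without TMM factors, the members took 0.464% and 0.438%, 0.293% and 0.310%, 0.623% and 0.630%, and 0.478% and 0.477% in the same order. On that scale the KO libraries after R848 were also below the unstimulated ones. The sum over complex I went from 1257 ± 93.4 to 874 ± 28.4 CPM (SD, n = 2) in WT, and from 1350 ± 7.42 to 1204 ± 14.2 CPM in KO.

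**Figure D2:**
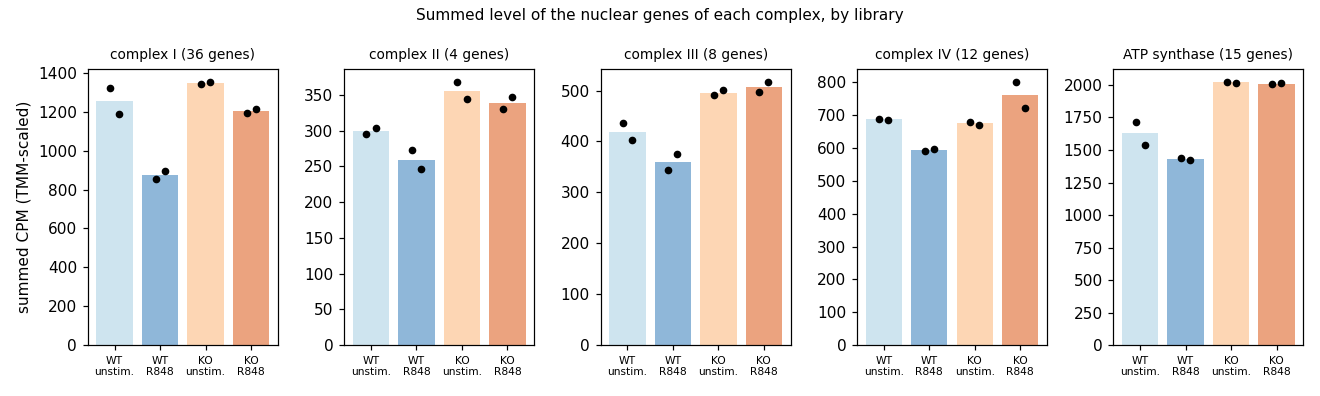
Summed CPM (TMM-scaled, linear axes from 0) of the subunit genes of each complex in the 4 groups; points are the 2 libraries of a group and bars their mean. In all 5 complexes the WT libraries after R848 were the lowest of the 4 groups, and for complex I these were 854 and 894 CPM.

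After R848, WT neutrophils held lower mRNA levels of many of these genes. Of the 85, 22 fell and 0 rose at a false discovery rate below 0.1 (edgeR's quasi-likelihood test, Benjamini-Hochberg adjusted over the 12254 genes tested), and 20 of all 85 log2 fold changes were above 0. At an unadjusted p below 0.05, 26 were lower and 0 higher, when 18.3% of all genes tested were lower and 14.8% higher; DESeq2 also called 0 higher, and relative log expression factors 2. Among all genes tested, 16.0% were called lower and 13.5% higher. The median log2 fold change was -0.50 for the members and -0.17 for all genes tested, and the difference of these medians stayed between -0.42 and -0.13 under every alternative run. The fallers comprised 11 of 36 complex I genes, 1 of 4 of complex II (Sdhd), 2 of 8 of complex III, 3 of 12 of complex IV and 5 of 15 of ATP synthase. At a mean of at least 10 counts, 22 of 72 members (30.6%) fell against 23.2% of all such genes. Falls of more than 2-fold numbered 8 of 85 (9.41%), against 10.8% of all genes tested.

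Among the core subunits of the electron path in complex I, Ndufs8, a carrier of iron-sulfur clusters, fell by 1.18 on the log2 scale (SE 0.44, adjusted p = 0.031). Its call was lost without replicate 1 of unstimulated WT, at -0.86, or replicate 1 of WT after R848, at -0.78. The core subunits Ndufs1, Ndufv1 and Ndufv2 were not called.
The larger falls in complex I were those of accessory subunits. Ndufa8, an accessory subunit on the intermembrane side, had 64.9 and 46.6 CPM unstimulated and 16.3 and 21.3 CPM after R848, a log2 fold change of -1.56 (SE 0.34, adjusted p = 4.7e-05). Ndufv3, an accessory subunit of the NADH-oxidising arm, went from 66.5 and 60.4 to 18.3 and 31.9 CPM, a log2 fold change of -1.31 (SE 0.31, adjusted p = 0.00018). These groups did not overlap, and both calls held when any 1 library was left out, with Ndufv3 at -0.86 without replicate 1 of WT after R848. Ndufa12, a late-joining accessory subunit, had 5 and 7 counts unstimulated and 1 and 1 after R848; the ratio of R848 to unstimulated was 0.194, with a counting interval of 0.021 to 0.87 (adjusted p = 0.053). This call was lost without replicate 2 of unstimulated WT or either replicate of WT after R848, with log2 fold changes of -2.25 to -1.95.

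In the downstream complexes, Uqcr11, a small subunit of complex III whose promoter is shown above, had 12 and 11 counts unstimulated and 1 and 3 after R848, a log2 fold change of -2.26 (SE 0.66, adjusted p = 0.0040). Uqcrc1, a core protein of the same complex, fell by 0.51 (SE 0.20). Nuclear subunits of complex IV fell too, Cox6a1 by 0.85 (SE 0.24), Cox6c by 0.81 (SE 0.26) and Cox8a by 0.50 (SE 0.23), all on the log2 scale. The last was close to the threshold, at adjusted p = 0.098. In ATP synthase, the rotor subunit c gene Atp5g2 had 34.0 and 55.3 CPM unstimulated and 8.15 and 23.0 CPM after R848, a log2 fold change of -1.44 (SE 0.38, adjusted p = 0.00089). The rotor shaft gene Atp5c1, the stalk genes Atp5o and Atp5h, and the alpha subunit Atp5a1 fell by 0.50 to 0.97. The catalytic beta subunit Atp5b had 413 and 344 CPM unstimulated and 448 and 416 CPM after R848 and was not called.
Of the falls in these downstream complexes given with values, Atp5h was the one called whichever library was left out. Without replicate 1 of WT after R848 the call was lost for Uqcr11 (log2 fold change -1.66), Uqcrc1 (-0.42), Cox6a1 (-0.53), Cox6c (-0.46), Cox8a (-0.32), Atp5g2 (-0.80) and Atp5a1 (-0.36). Without replicate 2 it was lost for Uqcrc1 (-0.35), Cox8a (-0.45), Atp5c1 (-0.49) and Atp5o (-0.77), and Atp5g2 went to -2.31. Without replicate 1 of unstimulated WT it was lost for Uqcrc1 (-0.40), Cox6a1 (-0.62), Cox8a (-0.41), Atp5c1 (-0.54) and Atp5o (-0.86), and without replicate 2 for Cox6c (-0.64) and Cox8a (-0.57). Cox8a also lost its call when any of the 4 KO libraries was left out, and Uqcrc1 when either replicate of KO after R848 was. In Atp5g2 the libraries of WT after R848 held 4 and 13 counts.

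Among the 18 genes with the NRF1 letters, 10 fell in WT, with a median log2 fold change of -0.83. Of the 52 matched genes without them 9 fell, with a median of -0.46. In KO the medians were -0.17 with and -0.13 without the letters. For KO against WT they were 0.19 and 0.17 unstimulated and 0.75 and 0.48 after R848. These contrasts were not tested, and genes outside the members that hold the letters were not compared. Cox6a1, Atp5h and Ndufb4, whose promoters are printed above, are among the 10 that fell. Over the same comparison in WT, erythroid markers went from 139 and 161 to 31.4 and 67.2 CPM of the library total, without TMM factors. Of 13 tested, 6 were called lower and 0 higher. Cycling-cell markers went from 654 and 862 to 490 and 505 on that scale. Of these, 1 of 7 was called lower and 0 higher, with a median log2 fold change of -0.22. Stromal and endothelial markers went from 229 and 201 to 39.3 and 32.9, with 2 of 5 called lower. Megakaryocyte markers went from 95.2 and 88.9 to 16.4 and 13.5, with 3 of 5 called lower. Of 11 immature neutrophil markers, 7 were called lower and 2 higher. Monocyte markers went from 1641 and 1517 to 3375 and 3501 CPM of the library total, with 3 of 11 called higher and 5 lower. Of 10 mature neutrophil markers 4 were called higher and 5 lower. Their part in the changes was not tested. DESeq2 called 9 of the members lower, and the number called was 9 without replicate 1 and 11 without replicate 2 of WT after R848, 10 without replicate 1 of unstimulated WT, and 39 when libraries were scaled by their totals alone.

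In Padi4 KO neutrophils, R848 was followed by falls and rises in equal number. Of the 85 members, 6 fell and 6 rose by the same test, when 15.9% of all genes tested were called lower and 19.2% higher. At a mean of at least 10 counts the 6 were 8.33% of 72 members in each direction, against 20.4% lower and 30.5% higher among all such genes, and beyond 2-fold 2 fell and 0 rose, against 8.84% and 8.07% of all genes tested. The median log2 fold change was -0.13 for the members and -0.03 for all genes, and the difference between these medians stayed between -0.18 and -0.04 under every alternative run. Complex III held no call, and in complex IV the 2 calls were rises. Over the same comparison stromal and endothelial markers went from 523 and 661 to 40.8 and 47.6 CPM of the library total and megakaryocyte markers from 201 and 170 to 34.8 and 40.6, 7 of 11 immature neutrophil markers were called lower and 2 higher, and 5 of 13 erythroid markers were called higher and 1 lower. Monocyte markers went from 2288 and 2284 to 3661 and 3586 CPM of the library total, with 4 of 11 called higher and 5 lower. Cycling-cell markers went from 1101 and 1080 to 828 and 843 on that scale, with 1 of 7 called lower and 0 higher. Of 10 mature neutrophil markers 5 were called higher and 3 lower. Their part in the members' changes was not tested.

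The fallers were Atp5g1, Ndufv3, Ndufb5, Ndufa8, Atp5c1 and Sdhd, 4 of which (Ndufv3, Ndufa8, Atp5c1 and Sdhd) also fell in WT. Atp5g1, the least abundant of the subunit c genes, had 46.4 and 44.3 CPM unstimulated and 20.4 and 21.1 CPM after R848, a log2 fold change of -1.11 (SE 0.26, adjusted p = 9.5e-05). Ndufv3 had 44.1 and 47.9 CPM unstimulated and 22.2 and 22.1 CPM after R848 (log2 fold change -1.06, SE 0.25, adjusted p = 0.00012). Atp5c1 had 154 and 139 CPM and then 96.8 and 95.6 CPM (log2 fold change -0.59, SE 0.14, adjusted p = 0.00016). In these genes the duplicates lay close together and the groups were apart, the calls held without any 1 library, and DESeq2 called the same 3 genes lower. Ndufb5, an accessory subunit of complex I, had 35.0 and 25.4 CPM and then 17.8 and 13.8 CPM (log2 fold change -0.88, SE 0.31, adjusted p = 0.016), and was not called without replicate 1 of unstimulated KO, at -0.68. Ndufa8 had 47.5 and 41.4 CPM and then 31.1 and 18.4 CPM (log2 fold change -0.81, SE 0.24, adjusted p = 0.0041), with -1.39 without replicate 1 of KO after R848 and -0.62, not called, without replicate 2. Sdhd, a membrane anchor of complex II, fell by 0.36 (SE 0.16, adjusted p = 0.081); this went to -0.69 without replicate 1 of KO after R848, and the call was lost when any other KO library was left out.

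The rises were smaller. Atp5e, the epsilon subunit of the ATP synthase stalk, had 40.7 and 62.4 CPM unstimulated and 85.3 and 73.5 CPM after R848, a log2 fold change of 0.56 (SE 0.18, adjusted p = 0.0067). Cox8a rose by 0.51 (SE 0.17), the accessory complex I subunit Ndufb9 by 0.45 (SE 0.17), Atp5l by 0.42 (SE 0.16), Cox6a1 by 0.38 (SE 0.16) and Atp5f1, the stator subunit b, by 0.24 (SE 0.11), with the direction of Atp5f1 turning to -0.14 when libraries were scaled by their totals alone. Of the Atp5l transcript, 84.9% of 50-base windows are shared with other annotated genes. The rises depended on scaling. The number called higher was 0 with library totals alone and 0 by DESeq2 (0 at an unadjusted p below 0.05), and 3 were with relative log expression factors. The falls numbered 43 with library totals, 13 with relative log expression factors, 14 under the expression filter of edgeR and 3 by DESeq2. Leaving out a KO library gave 0 to 3 rises, with 0 without replicate 1 and 2 without replicate 2 of KO after R848 and 3 without either unstimulated replicate. Without either replicate of WT after R848, 2 members rose, with 19 falls without replicate 1 and 17 without replicate 2; 12 fell without replicate 1 of KO after R848. Each of the 6 rises was lost for 2 or more of the 8 libraries left out. Over these 8 alone, the lowest value was reached without replicate 1 of KO after R848 for Atp5e (0.31), Cox8a (0.28), Ndufb9 (0.28) and Atp5l (0.27), and without replicate 2 for Cox6a1 (0.13) and Atp5f1 (0.07), while Atp5e went to 0.97 without replicate 2 of unstimulated KO.

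**Figure D3:**
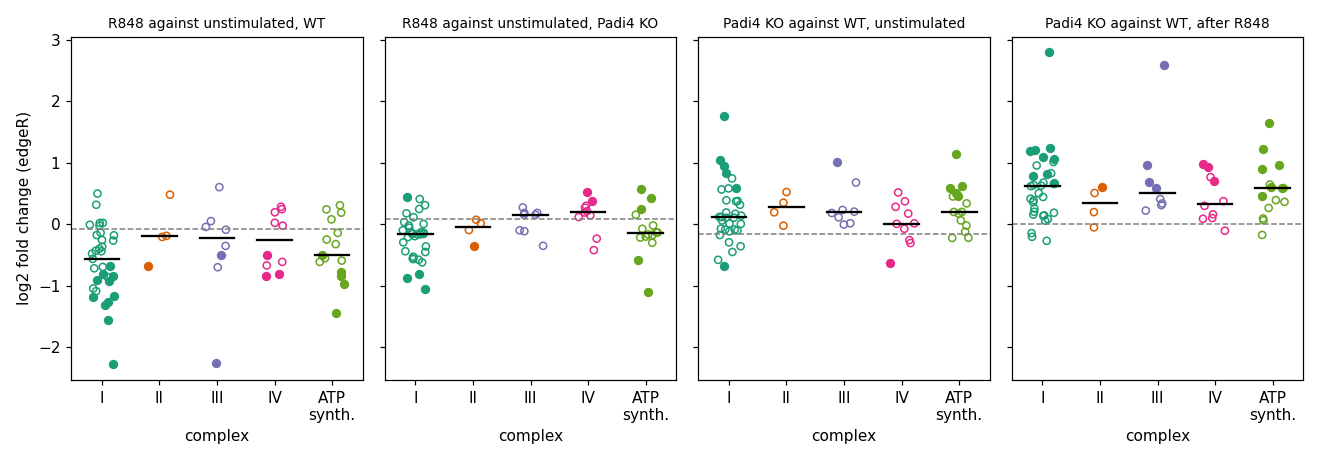
Log2 fold change of the subunit genes with at least 10 counts on average, by complex, in 4 comparisons; each point is a gene, filled where the adjusted p was below 0.1, black bars are medians of a complex and the dashed line is the median of all genes with at least 10 counts. In WT after R848 all filled points lie below 0, and in Padi4 KO against WT after R848 all lie above 0.

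The response to R848 was also compared directly between genotypes, as the log2 fold change in KO minus that in WT. For 6 of the 85 members this difference was above 0 at a false discovery rate below 0.1, and for 0 it was below 0; among all genes tested 3.45% were called higher and 1.26% lower. All 6 had a mean of at least 10 counts, where 6 of 72 members (8.33%) compare with 5.87% of all such genes. The 6 were Cox6a1, Cox6c and Cox8a of complex IV, Atp5g2 and Atp5h of ATP synthase, and Ndufa3 of complex I. The difference was positive for 66 of the 85, and its median was 0.31 for the members and 0.19 for all genes tested. The members' median minus that of all genes stayed between 0.06 and 0.22 under every alternative run. Without replicate 1 of WT after R848, 45 differences were positive, and the medians were 0.03 for the members and -0.03 for all genes. In relative log expression scaling the median over all genes was 0.04 and that of the members 0.16. In the same test 7 of 13 erythroid markers were called higher and 0 lower, with a median of 3.19, 3 of 10 mature neutrophil markers (Csf3r, Mmp9 and Retnlg) and 1 of 7 cycling-cell markers (Birc5) were called higher, and 2 of 11 immature neutrophil markers (Mpo and Prtn3) lower; their part in the members' differences was not tested.

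Cox6a1, with NRF1 letters at positions given above, had 99.0 and 74.2 CPM in unstimulated WT, 40.8 and 54.9 CPM in WT after R848, 75.8 and 66.8 CPM in unstimulated KO and 84.4 and 99.3 CPM in KO after R848. WT levels fell without overlap and KO levels rose without overlap. The difference of the responses was 1.23 (SE 0.29, adjusted p = 0.0027).
Cox8a, a small hydrophobic subunit of complex IV, had 94.3 and 84.6 CPM and then 61.1 and 65.5 CPM in WT, against 63.3 and 53.7 CPM and then 87.1 and 77.2 CPM in KO. Both WT libraries were above both KO libraries without stimulation and below them after R848. The gap after R848, 0.37 on the log2 scale (SE 0.21), was not called. The difference of the responses was 1.01 (SE 0.29, adjusted p = 0.020). Ndufa3, an accessory subunit of complex I, had 72.7 and 44.9 CPM and then 36.7 and 37.2 CPM in WT, and 36.2 and 37.7 CPM and then 43.5 and 55.1 CPM in KO (difference 1.09, SE 0.36, adjusted p = 0.063). Its duplicates in unstimulated WT were far apart, and its exons overlap those of Tfpt on the other strand; the strand setting of the counting is not given in the sources used here.
Cox6c had 66.5 and 84.6 CPM and then 34.7 and 49.6 CPM in WT, and 55.4 and 67.5 CPM and then 70.2 and 68.0 CPM in KO (difference 0.96, SE 0.32, adjusted p = 0.066). Atp5h, subunit d of the peripheral stalk, had 111 and 96.7 CPM and then 55.0 and 60.2 CPM in WT, and 96.1 and 84.9 CPM and then 82.6 and 93.7 CPM in KO (difference 0.83, SE 0.28, adjusted p = 0.070). In both genes the fall in WT had no counterpart of that size in KO. Atp5g2 had 54.3 and 56.6 CPM and then 50.6 and 50.6 CPM in KO, beside the fall in WT given above (difference 1.31, SE 0.43, adjusted p = 0.064). Of the Atp5h transcript, 47.9% of 50-base windows are shared with other annotated genes.

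These differences rested on few libraries. Without replicate 1 of WT after R848 they were 0.52 for Atp5g2, 0.77 for Cox6a1, 0.81 for Ndufa3, 0.69 for Cox8a, 0.46 for Cox6c and 0.50 for Atp5h. Atp5g2 went to 2.05 without replicate 2 of WT after R848, Ndufa3 to 0.69 without replicate 1 of unstimulated WT, and Ndufa3 and Atp5h to 0.69 and 0.51 without replicate 2 of KO after R848. The number of members called was 0 without replicate 1 of WT after R848 and 0 without replicate 2 of KO after R848, 1 without replicate 1 of KO after R848, 2 without replicate 1 of unstimulated WT, 2 and 3 without replicate 2 and replicate 1 of unstimulated KO, and 3 without replicate 2 of WT after R848. DESeq2 called 0, with 2 at an unadjusted p below 0.05, and relative log expression factors gave 2. By edgeR, 16 members had a positive difference at an unadjusted p below 0.05 and 0 a negative one, when 10.0% of all genes tested had a positive and 3.32% a negative one and the median of all genes was itself above 0, as given above.

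**Figure D4:**
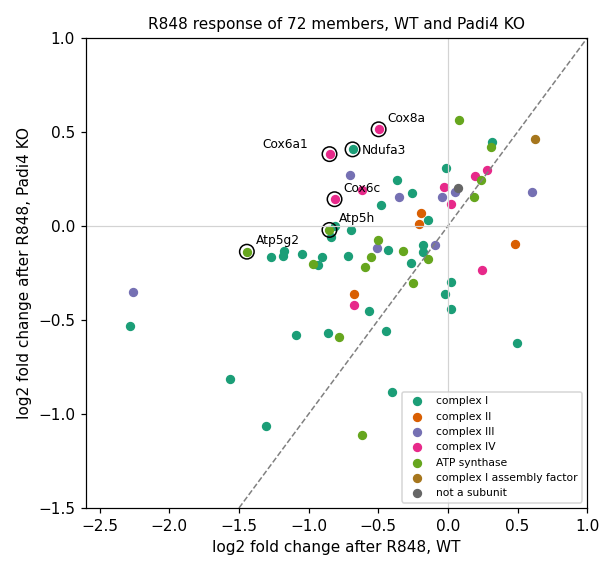
Log2 fold change after R848 in Padi4 KO (vertical axis) against WT (horizontal axis) for the 72 members whose mean was 10 counts or more, coloured by role; the dashed line marks equal responses and open circles mark the 6 genes whose responses differed. The circled genes lie left of the line, with values from -1.44 to -0.50 in WT and from -0.14 to 0.51 in KO.

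**Figure D5:**
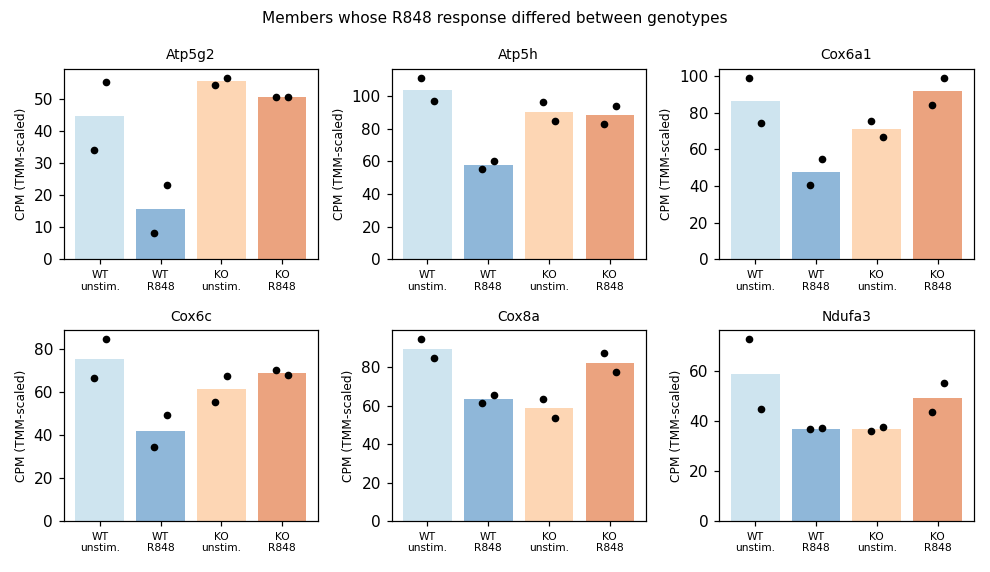
CPM (TMM-scaled, linear axes from 0) in the 8 libraries for the 6 members whose response to R848 differed between genotypes; points are the 2 libraries of a group and bars their mean. In Cox6a1 the WT libraries went from 99.0 and 74.2 to 40.8 and 54.9 CPM and the KO libraries from 75.8 and 66.8 to 84.4 and 99.3 CPM.

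Without stimulation, KO neutrophils had higher levels of 13 members and lower levels of 2 than WT, when 9.55% of all genes tested were called higher and 14.4% lower. At a mean of at least 10 counts, 11 of 72 members (15.3%) were higher against 12.4% of all such genes, and 2 (2.78%) were lower against 24.2%. Beyond 2-fold, 6 of 85 (7.06%) were higher against 6.46% of all genes tested, and 0 lower against 2.0%, so that on both counts the share of members called higher was near that of all genes. The median log2 fold change was 0.17 for the members and -0.03 for all genes, and the difference of these medians stayed between 0.17 and 0.32 under every alternative run. The higher genes were 6 of complex I, 5 of ATP synthase, Uqcrfs1 of complex III and Cox6b2 of complex IV. The lower ones were Ndufa3, at -0.68 (SE 0.24), and Cox8a, at -0.64 (SE 0.20), both among the genes whose R848 response differed. Without replicate 1 of unstimulated WT these were -0.27 and -0.55, and without replicate 2 of unstimulated KO -0.71 and -0.49, and neither was called in either case; Ndufa3 was also not called without either replicate of KO after R848.

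Atp5b had 413 and 344 CPM in WT and 508 and 559 CPM in KO, a log2 fold change of 0.50 (SE 0.10, adjusted p = 7.5e-06). Atp5a1, its partner in the catalytic head, had 278 and 292 CPM in WT and 401 and 385 CPM in KO, a log2 fold change of 0.46 (SE 0.11, adjusted p = 0.00025). Uqcrfs1, the Rieske iron-sulfur protein of complex III, had 37.1 and 25.9 CPM in WT and 71.2 and 59.5 CPM in KO, a log2 fold change of 1.01 (SE 0.25, adjusted p = 0.00065). For each of these genes the groups were apart, the call held without any 1 library, and DESeq2 made it too. Ndufab1 had 3 and 6 counts in WT against 17 and 40 in KO, which held the deeper libraries, a log2 fold change of 1.75 (SE 0.46, adjusted p = 0.0016). Atp5g1 had 24.7 and 15.5 CPM in WT and 46.4 and 44.3 CPM in KO (log2 fold change 1.14, SE 0.31, adjusted p = 0.0021). Of the core complex I genes, Ndufs3 was higher by 0.95 (SE 0.39, adjusted p = 0.066) and the accessory Ndufa12 by 1.04 (SE 0.45, adjusted p = 0.093). Ndufs3 shares 39.7% of its 50-base windows with other annotated genes and overlaps Kbtbd4 on the other strand. Its log2 fold change was 0.37 without replicate 1 of unstimulated WT and 0.63 without replicate 2 of unstimulated KO, not called in either case, and 1.78 without replicate 2 of unstimulated WT. Ndufa12 was not called without those libraries, at 0.74, 0.79 and 1.38. Ndufab1 was not called without replicate 1 of unstimulated WT (1.27) or replicate 2 of unstimulated KO (1.38), nor Atp5g1 without replicate 2 of unstimulated WT (0.86).

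DESeq2 called 3 of the members higher and 0 lower, and with library totals alone 0 were lower. The number lower was also 0 without replicate 1 of unstimulated WT or replicate 2 of unstimulated KO, and 1 without either replicate of KO after R848. The number higher was 30 with library totals alone, 6 without replicate 2 and 8 without replicate 1 of unstimulated WT, 7 without replicate 2 of unstimulated KO, and 20 and 21 without replicate 1 and replicate 2 of WT after R848.

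After R848, 26 of the 85 members were higher in KO than in WT and 0 were lower, when 9.46% of all genes tested were called higher and 7.81% lower. At a mean of at least 10 counts 24 of 72 members (33.3%) were higher against 12.9% of all such genes, and beyond 2-fold 11 of 85 (12.9%) against 7.02% of all genes tested. The median log2 fold change was 0.51 for the members and 0.08 for all genes, and the difference of these medians stayed between 0.36 and 0.49 under every alternative run. In 58 of the 85 (68.2%) both KO libraries lay above both WT libraries, as in 30.3% of all genes tested; in 28 (32.9%) this held in both treatments, as in 14.4% of all genes. The 26 comprised 9 genes of complex I, Sdha of complex II, 4 of complex III, 4 of complex IV, 7 of ATP synthase and the assembly factor Ndufaf3. Of the 26, 8 were also called higher in unstimulated KO. At an unadjusted p below 0.05, 33 members were higher in KO and 0 lower, when 13.1% of all genes tested were higher and 10.3% lower, and DESeq2 also called 0 lower.

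The widest gaps among members with at least 10 counts on average were in genes that had few counts in WT after R848. Ndufa12 had 1 and 1 counts in WT against 13 and 18 in KO, a ratio of KO to WT of 7.39 with a counting interval of 1.88 to 63.7 (adjusted p = 0.0048). Uqcr11 had 1 and 3 counts in WT against 26 and 26 in KO, a ratio of 6.20 with a counting interval of 2.28 to 23.6 (adjusted p = 0.00018). Ndufs3 had 2 and 6 counts in WT against 14 and 26 in KO (log2 fold change 1.24, SE 0.52, adjusted p = 0.099). It was not called without replicate 1 of WT (0.62), replicate 2 of WT (2.03) or replicate 2 of KO after R848 (0.61). Atp5g2 had 8.15 and 23.0 CPM in WT and 50.6 and 50.6 CPM in KO, a log2 fold change of 1.64 (SE 0.33, adjusted p = 2.2e-05), which was 0.99 without replicate 1 and 2.53 without replicate 2 of WT and stayed called.
Other members had closer duplicates. Atp5o, the oligomycin sensitivity protein of the stalk, had 28.5 and 24.8 CPM in WT and 57.8 and 66.2 CPM in KO, a log2 fold change of 1.22 (SE 0.28, adjusted p = 0.00025). Atp5a1 had 200 and 202 CPM in WT and 389 and 355 CPM in KO, a log2 fold change of 0.89 (SE 0.12, adjusted p = 1.5e-11). Atp5b was higher by 0.46 (SE 0.10, adjusted p = 4.8e-05), so that both catalytic-head genes were higher in KO in both treatments. The calls of Ndufa12, Uqcr11, Atp5o, Atp5a1 and Atp5b held without any 1 library.

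Among electron-carrying subunits, Sdha, the flavoprotein that oxidises succinate, had 106 and 92.1 CPM in WT and 141 and 160 CPM in KO (log2 fold change 0.61, SE 0.17, adjusted p = 0.0036). The other Sdh genes were not called here, at 63.2 and 69.1 against 68.4 and 83.6 CPM for Sdhb, 48.9 and 42.5 against 44.4 and 43.2 CPM for Sdhc, and 55.0 and 42.5 against 76.4 and 60.7 CPM for Sdhd. Uqcrfs1 was higher in KO by 0.59 (SE 0.23, adjusted p = 0.068). Ndufv1, the flavin-binding entry point for electrons from NADH, was higher by 0.78 (SE 0.30) and Ndufs8 by 1.18 (SE 0.40). Sdha was not called without replicate 2 of WT or of KO after R848, at 0.42 in both cases. Uqcrfs1 went to 0.17 without replicate 1 of WT, 0.63 without replicate 1 of KO and 0.33 without replicate 2 of KO, not called in these cases, and to 0.90 without replicate 2 of WT. Ndufv1 lost its call when any 1 of the 4 libraries compared was left out, at 0.54 to 0.81, and Ndufs8 without replicate 1 of WT (0.78) or of KO (0.94). Cox4i1, the most abundant complex IV gene per length, had 130 and 117 CPM in WT and 147 and 117 CPM in KO and was not called.

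Beside these differences between genotypes, 11 of 13 erythroid markers without stimulation and all 13 after R848 were called higher in KO, and 11 and 10 of 11 immature neutrophil markers were called lower. Of 11 monocyte markers, 7 were higher and 1 lower without stimulation, when their sum was 1517 to 1641 CPM of the library total in WT and 2284 to 2288 in KO, and 5 were higher and 1 lower after R848. Of 7 cycling-cell markers 1 and 4 were higher in KO, of 5 stromal and endothelial markers 2 and 0, of 5 megakaryocyte markers 2 and 1, and 9 and 8 of 10 mature neutrophil markers were lower. Their part in the members' differences was not tested. After R848 the count of members higher in KO was 9 without replicate 1 and 15 without replicate 2 of WT, 14 without either replicate of KO, 16 with counts thinned to the smallest library, 6 by DESeq2 and 40 with library totals alone.

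The 13 members with fewer than 10 counts on average were Atp5s, Atp5sl, Cox6b2, Cox7a1, Ndufa5, Ndufb2, Ndufc1 and 6 of the 7 assembly factors (Ndufaf1 to Ndufaf6), with 0 to 24 counts in any library. Of these, 3 were called in some comparison, namely Cox6b2, Ndufa5 and Ndufaf3. Ndufaf3 had 1 and 4 counts in WT against 17 and 20 in KO after R848 (log2 fold change 1.79, SE 0.61, adjusted p = 0.028), with 1.08 without replicate 1 of WT and 1.55 without replicate 2 of KO, not called in either case, and 2.87 without replicate 2 of WT. The supercomplex factor Cox7a2l was called in no comparison and lay between 76.0 and 104 CPM in all 8 libraries.

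Genes of the same pathway outside the symbol rule were read from lists of electron carriers, other assembly factors and tricarboxylic acid cycle enzymes. Their counts are to be read beside the shares of all genes tested, which were 13.5% higher and 16.0% lower in WT after R848, 19.2% and 15.9% in KO after R848, 9.55% and 14.4% in unstimulated KO against WT, and 9.46% and 7.81% in KO against WT after R848. Of 14 electron carrier genes tested, 1 rose and 0 fell in WT after R848, 0 rose and 3 fell in KO, 3 were higher in unstimulated KO and 3 higher and 2 lower in KO after R848. Cycs, the somatic cytochrome c that links complexes III and IV, rose in WT by 1.05 (SE 0.29, adjusted p = 0.0019), with 18 and 20 counts unstimulated and 33 and 35 after R848, against 44 and 75 and then 57 and 38 counts in KO. It was higher in KO without stimulation, by 0.76 (SE 0.26, adjusted p = 0.024), and lower in KO after R848, by 0.58 (SE 0.24, adjusted p = 0.085). Its response differed between genotypes by -1.34 (SE 0.35, adjusted p = 0.0092). Cyc1, the cytochrome c1 of complex III, was higher in KO by 0.77 (SE 0.23) without stimulation and by 0.76 (SE 0.27) after R848. The rise of Cycs in WT held without any 1 library. The difference of its response was not called without replicate 1 of unstimulated WT (-1.19), its higher level in unstimulated KO not without replicate 1 of unstimulated WT (0.60) or replicate 2 of unstimulated KO (0.69), and its lower level in KO after R848 not without either replicate of WT after R848 (-0.67 and -0.73) or replicate 2 of KO (-0.44), with -0.99 without replicate 1. Cyc1 was not called without replicate 2 of unstimulated WT (0.55), and after R848 it lost its call when any 1 of the libraries compared was left out (0.61 to 0.70).

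Of 39 other assembly and regulatory factors tested, 2 rose and 5 fell in WT, 5 rose and 3 fell in KO, 3 were higher in unstimulated KO, and 2 were higher and 1 lower in KO after R848. The 12.8% that fell in WT and the 12.8% that rose in KO were below the shares of all genes. Atpif1, an inhibitor of ATP hydrolysis by ATP synthase, had 22 and 25 counts in unstimulated WT, 10 and 8 in WT after R848, 51 and 96 in unstimulated KO and 88 and 88 in KO after R848. It fell in WT by 1.16 (SE 0.38, adjusted p = 0.012), and its response differed between genotypes by 1.45 (SE 0.42, adjusted p = 0.023). Cox17, which delivers copper to complex IV, rose in both genotypes, by 0.96 (SE 0.28) in WT and 0.64 (SE 0.20) in KO. Acad9, which helps to assemble complex I, fell in both, at -1.76 (SE 0.61) in WT and -0.96 (SE 0.40) in KO. Of these calls, that of Cox17 in WT held without any 1 library. The fall of Atpif1 was not called without replicate 2 of unstimulated WT (-0.99) or replicate 2 of WT after R848 (-0.81), and the difference of its response was lost when replicate 2 of unstimulated WT or any 1 library after R848 was left out (0.97 to 1.44). Cox17 in KO was not called without replicate 2 of unstimulated KO (0.45) or of KO after R848 (0.41). Acad9 was not called in WT without replicate 1 of unstimulated WT (-1.58) or replicate 2 of WT after R848 (-1.15), nor in KO without replicate 1 of unstimulated KO (-0.75) or of KO after R848 (-0.41), with -2.39 without replicate 2.
Of 13 genes of the tricarboxylic acid cycle, which supplies the chain with NADH and succinate, 0 rose and 5 fell in WT after R848, and 1 rose and 3 fell in KO. The largest fall in WT was that of Idh3a, from 11 and 13 counts to 2 and 3 (log2 fold change -2.01, SE 0.62, adjusted p = 0.0068). Without stimulation 4 of the 13, and after R848 5, were higher in KO, Cs, the citrate synthase of the first step, by 0.37 (SE 0.14) and 0.43 (SE 0.16). The fall of Idh3a held without any 1 library. Cs was not called without replicate 2 of unstimulated WT (0.15) or of unstimulated KO (0.27), with 0.67 without replicate 1 of unstimulated WT, and after R848 it lost its call when any 1 of the libraries compared was left out (0.25 to 0.39).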

How the data were processed

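RNA libraries (TruSeq kit v2, paired ends, MiSeq) of 8 neutrophil samples were analysed. The authors trimmed reads with cutadapt 1.16, filtered them, mapped them to mm10 with STAR 2.5.3a and counted them with HTSeq 0.6.1p1; the deposited values are raw counts per gene symbol. The annotation and strand setting of the counting are not given in the sources used here. The summary lines of HTSeq, 10.6% to 13.0% of each library's total, were left out. In 15 of 84 members whose principal transcript was compared, at least 20% of 50-base windows occur in another gene, and exons of 26 overlap an antisense gene, so their counts are uncertain.

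Genes with at least 1 count in at least 2 libraries were fitted in R 4.3.3 with edgeR 4.0.16 (limma 3.58.1): TMM factors, a mean per group and a robust quasi-likelihood test. Adjusted p-values are from this test with Benjamini-Hochberg adjustment over all 12254 genes, and calls were made below 0.1. Standard errors were derived from the log2 fold change and its F statistic. DESeq2 1.42.0, other scalings, filters and thresholds, thinned counts, a replicate block, subunits only and leaving out each library were alternatives; thinning was added after the data were seen. The members and gene lists were chosen with earlier results of these data known. Members given with values were, in each comparison, the 5 with the largest rise and fall at a mean of at least 10 counts, all with a difference of response, the extremes of level and isoforms of each complex, and all 4 Sdh genes; Atp5f1, Ndufs8, Ndufv1, Uqcrc1, Cox17, Acad9, Cyc1 and Idh3a were singled out after their values were seen. Of the members this rule names, 1 is not reported here. Sequences are from RefSeq (GRCm38.p6), and lengths from GENCODE vM21 on GRCm38, the build of mm10.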

Additional observations from a re-analysis of the deposited data

Results flagged for a closer look

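The response to R848 differed between genotypes, by the test of the difference itself, for 6 members, each with a higher log2 fold change in Padi4 KO than in WT. The difference was 1.31 for Atp5g2, 1.23 for Cox6a1, 1.09 for Ndufa3, 1.01 for Cox8a, 0.96 for Cox6c and 0.83 for Atp5h. In WT all of them fell, and in KO the log2 fold changes lay between -0.14 and 0.51. By DESeq2 the adjusted p was 0.23 for Cox6a1, 0.41 for Cox8a and 0.56 for Atp5h, and none was given for the other 3, which its filter left out. When each library was left out in turn, the difference stayed above 0 for each gene, from 0.52 to 2.05 for Atp5g2, 0.77 to 1.41 for Cox6a1, 0.69 to 1.38 for Ndufa3, 0.68 to 1.10 for Cox8a, 0.46 to 1.13 for Cox6c and 0.50 to 0.92 for Atp5h.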

How the results depend on the processing

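The number of members called moved with test and scaling, while the members' median minus that of all genes tested kept its sign in all 5 comparisons under every alternative run. DESeq2 called 9 falls in WT, 0 rises and 3 falls in KO, 0 differences of response, 3 higher and 0 lower in unstimulated KO and 6 higher in KO after R848. Relative log expression factors gave 2 rises in WT, 3 rises and 13 falls in KO and 2 differences, and library totals alone 39 falls in WT, 0 rises and 43 falls in KO, 2 differences, 30 higher and 0 lower in unstimulated KO and 40 higher after R848. With library totals the median of all genes moved to -0.47 in WT, -0.41 in KO, 0.22 in unstimulated KO against WT and 0.30 after R848. With edgeR's filterByExpr 14 members fell in KO. Thinned counts gave 2 rises in KO, 3 differences and 16 higher in KO after R848. A false discovery rate of 0.05 left 2 differences and 8 higher in unstimulated KO, and a 2-fold limit at a false discovery rate of 0.1 left 8 falls in WT, 0 rises and 2 falls in KO, 6 higher and 0 lower in unstimulated KO and 11 higher after R848. When each library was left out, the counts ranged from 0 to 3 rises and 9 to 22 falls in WT, 0 to 6 rises and 5 to 19 falls in KO, 0 to 5 positive and 0 negative differences, 6 to 21 higher and 0 to 2 lower in unstimulated KO, and 9 to 26 higher and 0 lower after R848. The cause of these shifts was not tested. Of 81 calls of single genes, DESeq2 kept 21, relative log expression factors 65 and library totals 69, with 1 turned, Atp5f1 in KO at -0.14. Same-numbered libraries did not deviate together (correlations from -0.019 to 0.021), and with the replicate block 78 of the 81 calls held and 21 members fell in WT, against 22. With 3 counts at 2.55 to 5.33 CPM, depth limits all values of members under 10 counts.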

Other observations

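Regulators of mitochondrial genes and outer membrane genes were also read. Of 14 regulators tested, 3 rose and 1 fell in WT after R848, and 4 rose and 1 fell in Padi4 KO. In unstimulated KO 3 were higher and 0 lower than in WT, and after R848 4 were higher and 0 lower. Rises were 21.4% of the list in WT and 28.6% in KO, against 13.5% and 19.2% of all genes tested. Falls were 7.14% in each, against 16.0% and 15.9%. For KO against WT, 9.55% of all genes were called higher and 14.4% lower unstimulated, and 9.46% and 7.81% after R848. Esrra, a nuclear receptor that acts on genes of energy metabolism, rose in both genotypes, from 30 and 31 to 37 and 49 counts in WT (log2 fold change 0.71, SE 0.24, adjusted p = 0.018 in edgeR's quasi-likelihood test) and from 36 and 54 to 97 and 87 counts in KO (1.06, SE 0.19). Gabpb1, a subunit of the ETS factor GABP, rose by 0.78 (SE 0.27) in WT and 0.61 (SE 0.22) in KO, and Yy1 by 0.67 (SE 0.18) and 0.66 (SE 0.15). Nrf1 rose in KO by 0.61 (SE 0.19) and was not called in WT, and this contrast between genotypes was not called in the test of the difference. Tfam, which packages and transcribes mitochondrial DNA, had 9 and 4 counts in unstimulated WT, 2 and 0 in WT after R848, 16 and 22 in unstimulated KO and 20 and 15 in KO after R848; it fell in WT (adjusted p = 0.036) and was higher in KO after R848 (adjusted p = 0.0016). Neither call of Tfam held without replicate 2 of WT after R848, nor the first without replicate 1 of unstimulated WT. The rise of Esrra in KO held without any 1 library. Calls were lost without replicate 1 of unstimulated WT for Esrra (0.61) and Gabpb1 (0.64) in WT, without replicate 2 of unstimulated WT for Yy1 in WT (0.41, with 1.03 without replicate 1), without replicate 2 of WT after R848 for Gabpb1 in WT (0.69), without replicate 2 of KO after R848 for Gabpb1 (0.36), Yy1 (0.37) and Nrf1 (0.32) in KO, and without replicate 2 of unstimulated KO for Gabpb1 (0.60) and Nrf1 (0.55) in KO.

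Of 7 outer membrane genes, 1 rose and 1 fell in WT after R848, and 2 rose and 4 fell in KO. Against WT, 3 were higher and 0 lower in unstimulated KO, and 2 higher and 0 lower in KO after R848. In WT this was 14.3% each way, near the 13.5% of all genes tested that rose and 16.0% that fell. In KO it was 28.6% and 57.1%, against 19.2% and 15.9%. The shares of all genes between genotypes are those given above. Vdac1, a channel for ATP and metabolites, fell by 0.98 (SE 0.25) in WT and by 0.62 (SE 0.16) in KO after R848, while its relative Vdac3 rose by 0.79 (SE 0.26) and 0.43 (SE 0.18). Tomm40, the pore for protein import, was higher in KO by 1.30 (SE 0.35) without stimulation and by 1.31 (SE 0.54) after R848, with 9 and 10 counts in unstimulated WT and 32 and 55 in unstimulated KO. It fell in KO after R848, to 21 and 16 counts (log2 fold change -1.19, SE 0.28). The calls of Vdac1 in both genotypes, the higher level of Tomm40 in unstimulated KO and its fall in KO held without any 1 library. Vdac3 was not called in WT without replicate 1 of unstimulated WT (0.57), and in KO its call was lost when any 1 KO library or WT library after R848 was left out (0.15 to 0.46), as was the genotype call of Tomm40 after R848 when any 1 of the libraries compared was (1.02 to 1.37).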
